A study of Saccharomyces cerevisiae with 12 samples.

Results

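Low-abundance XUTs are the Xrn1-sensitive unstable transcripts of Saccharomyces cerevisiae whose mean density over the 12 libraries of the series was at least 0.006 and under 0.03. By this rule 1086 of the 1664 XUTs in the table were chosen, out of 10891 features in all, and 274 XUTs lay above the range and 304 below it. Density is the number of reads per nucleotide of a feature, scaled between libraries by the authors. The members were chosen by their mean density over all 12 libraries, so the level of the group is set by that choice and carries no test, while the differences between strains were not part of it. Just inside the lower bound stood XUT1768, XUT0769 and XUT1604 (mean density 0.00601, 0.00602 and 0.00602), and just outside it XUT0295, XUT0959 and XUT1147 (0.00599, 0.00598 and 0.00594). Just inside the upper bound stood XUT0884, XUT1391 and XUT0614 (0.02999, 0.0299 and 0.0298), and just outside it XUT0093, XUT0999 and XUT0081 (0.03003, 0.0301 and 0.0303).

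The series holds strand-specific sequencing of total RNA, depleted of ribosomal RNA, from 5 RNA helicase deletion strains and their parent, with 2 biological replicates each. The strains were labelled ecm32-delta, slh1-delta, ski2-delta, dbp1-delta and dhh1-delta, each a deletion replaced by the kanMX4 cassette. The reference was BY4741 wild type (WT), a MATa laboratory strain that carries his3Δ1, leu2Δ0, met15Δ0 and ura3Δ0, alleles that every strain shared. Cells came from mid-log cultures in rich medium (YPD) at 30°C. The labels list no deletion of XRN1 in any strain, and XRN1 itself had a density of 1.06 to 2.36 in the 12 libraries. No clone number is given, so it is not known whether the 2 replicates of a strain came from 1 clone.

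XUTs are long noncoding RNAs made by RNA polymerase II, many of them antisense to genes. They are capped and polyadenylated like messenger RNAs, reach the cytoplasm, and are degraded there after decapping by the 5′-3′ exonuclease Xrn1, in part through nonsense-mediated decay. Because of this decay they are scarce in cells with intact Xrn1. The helicases tested have different roles: Dhh1 acts in decapping and translational repression, Ski2 drives the Ski complex that feeds RNA to the cytoplasmic exosome, Slh1 splits stalled ribosomes, Dbp1 is a relative of the initiation helicase Ded1, and Ecm32 has a part in translation termination. By its title, the series addresses how XUTs respond to the loss of these helicases.

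Depth was 8.60 to 17.2 M endogenous reads per library (median 14.2 M). The deleted gene was at 0.319% of the WT density in ecm32-delta (ECM32) and at 0.0283% in slh1-delta (SLH1). DHH1 had densities of 0.0228 and 0.0244 in dhh1-delta, against 1.03 and 1.15 in WT. For 2 strains the targeted gene went against the label. In the libraries with the label ski2-delta, DBP1 stood at 3.68% of its WT density and SKI2 at 146%. In those with the label dbp1-delta, SKI2 had 2 and 1 reads and DBP1 stood at 150%. They are called ski2-labelled and dbp1-labelled libraries here, and no direction found in them is tied to the gene in the label. The MATa genes MFA1, MFA2, STE2, STE6 and BAR1 had densities from 0.940 to 30.6 in all libraries, and the MATalpha genes MF(ALPHA)1, MF(ALPHA)2, STE3 and SAG1 from 0 to 0.158.

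The low-abundance XUTs were thinly covered. Their counted length ran from 153 to 5923 nucleotides, with a median of 630.5, beside 503 for the well-expressed XUTs. Within the same density bounds the median was 417 for CUTs (cryptic unstable transcripts), and 1101 for protein-coding genes. Reads of a member summed over the 12 libraries ran from 15 to 1719, with a median of 106, and a member's median library had a median of 8.5 reads. A read was found in all 12 libraries for 953 members (87.8%), in 11 for 94 and in 10 for 23, and no member had reads in fewer than 8. Single members are therefore read with wide counting errors, and sums over members with narrow ones. Counting errors leave out differences between replicates: the pooled SD of the members' summed density was 8.05% of the mean. Within a strain, the log2 densities of the 1086 members in both replicates had a Pearson correlation of 0.486 to 0.709, a description across transcripts that share a library.

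The 1086 members together took 0.0748 to 0.134% of endogenous reads, a share that no scaling factor enters. The share was 0.106 and 0.108% in ecm32-delta, 0.115 and 0.118% in slh1-delta, 0.111 and 0.122% in the ski2-labelled libraries, 0.134% in each dbp1-labelled library, 0.0748 and 0.0766% in dhh1-delta, and 0.121 and 0.119% in WT. Both dhh1-delta libraries lay below the other 10, and both dbp1-labelled libraries lay above the other 10. As strain means with SD (n = 2 each), the share was 0.107 ± 0.00108% in ecm32-delta, 0.0757 ± 0.00130% in dhh1-delta and 0.120 ± 0.000961% in WT. It was 0.117 ± 0.00220% in slh1-delta, 0.116 ± 0.00754% in the ski2-labelled libraries and 0.134 ± 0.000341% in the dbp1-labelled ones. The mean share in dhh1-delta was 63.0% of the WT mean, beside 111.7% in the dbp1-labelled libraries, 97.0% in the ski2-labelled ones, 97.1% in slh1-delta and 89.2% in ecm32-delta.

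On the deposited scale the summed density was 16.7 and 15.9 in ecm32-delta, 14.2 and 15.7 in slh1-delta, 19.2 and 21.7 in the ski2-labelled libraries, 20.1 and 23.4 in the dbp1-labelled ones, 10.4 and 10.5 in dhh1-delta, and 15.3 and 17.9 in WT. On this scale too both dhh1-delta libraries were the lowest of the 12, and the 4 ski2-labelled or dbp1-labelled libraries were the highest. As percent of the WT mean the sums were 98.2% in ecm32-delta, 90.2% in slh1-delta, 123% in the ski2-labelled libraries, 131% in the dbp1-labelled ones and 63.1% in dhh1-delta. Scaled by protein-coding genes instead, the sums in the same order of strains were 91.7, 97.4, 91.4, 103 and 64.8% of WT, so the ski2-labelled libraries went from above WT to below it. Scaled by spike-ins they were 77.7, 66.8, 68.2, 84.4 and 51.0%. The spike-in share was 1.22% in the first WT library and 1.72 to 2.69% in the remaining 11, so the WT level on that scale differs between its 2 libraries. An exact two-sided permutation test of 2 libraries against 2 cannot go below 1 in 3, and the sums are given as a description with no test.

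**Figure D1:**
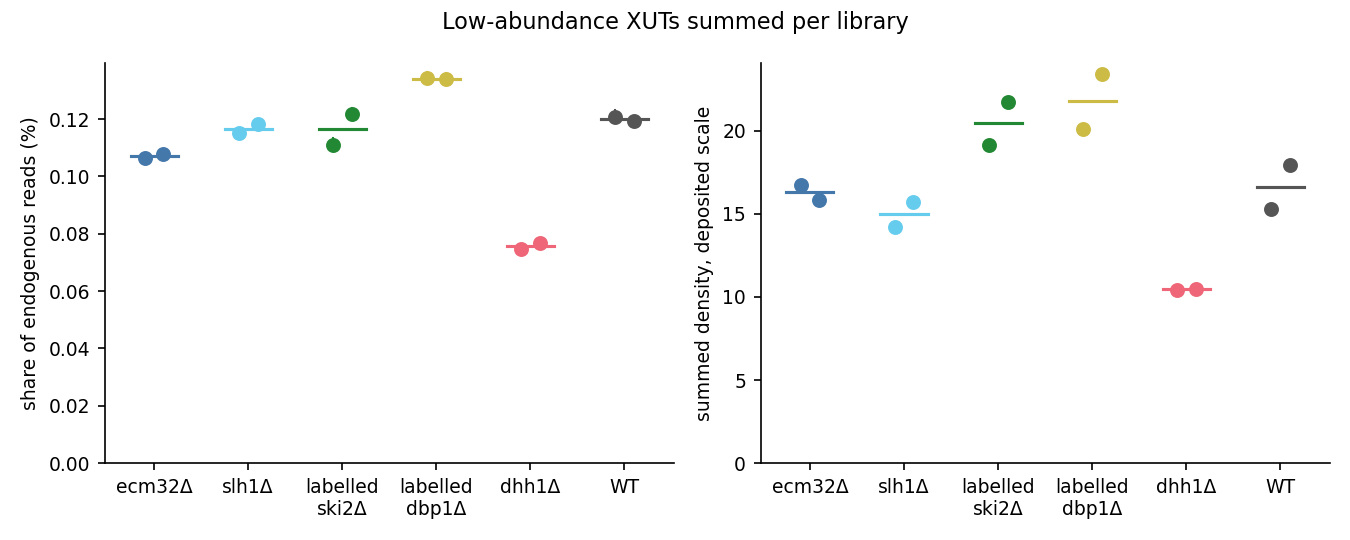
The 1086 low-abundance XUTs summed in each of the 12 libraries. On the left is their share of endogenous reads in percent, with 95% Wilson score intervals that cover counting error only. On the right is their summed density on the deposited scale. Points are libraries and short lines strain means (n = 2); both dhh1-delta libraries are lowest in both panels, at 0.0748 and 0.0766% and at 10.4 and 10.5.

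The median density put the strains in the same order as the sums. The median density of the members was 0.00797 and 0.00799 in dhh1-delta, against 0.0125 and 0.0149 in WT, and lay between 0.0120 and 0.0197 in the other 8 libraries. The quartiles were 0.00480 and 0.0129 in the first dhh1-delta library, against 0.00829 and 0.0189 in the first WT library. Fewer members were detected as well. Thinned to 8.60 M reads, the depth of the shallowest library, a read was expected for 984 and 987 of the 1086 members in dhh1-delta, against 1064 and 1055 in WT, and for 1049 to 1065 in the other 8 libraries. Without thinning, 1052 and 1045 members had a read in dhh1-delta, against 1066 and 1077 in WT. In RNA from whole cultures, less of a transcript in each cell and fewer cells that make it cannot be told apart.

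Each member was tested in a limma-trend model of log2 density over all 12 libraries, together with 9497 features in all, with Benjamini-Hochberg adjustment within each comparison and 0.05 as the threshold. All 1086 members passed the filter on low values, since the lower bound of the rule lies above it. The counts called in this model are set beside the share of all features called in the same direction. Counts under other settings, here and in the closing sections, are given for the members only.

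Most low-abundance XUTs had lower fitted values in dhh1-delta than in WT, and 298 of the 1086 members (27.4%) were called lower and 13 (1.20%) higher, against 24.3% lower and 13.7% higher over all features. The share called lower was thus close to that of all features and is no result about the XUTs, while the share called higher was below that of all features, a difference that was not tested. The median log2 fold change of the members was -0.48 (quartiles -0.86 and -0.14), beside a median of -0.20 over all features. Of the members, 889 (81.9%) had a fold change below 0, against 63.4% of all features. Among those called, 175 were at least 2-fold lower and 10 at least 2-fold higher. With protein-coding factors 349 members were called lower and 16 higher, with a median of -0.48, beside -0.16 over all features. Voom on the recovered reads called 362 lower and 19 higher, with a median of -0.74, beside -0.23 over all features. No share over all features stands beside the 2-fold counts or the counts under other settings, so they are no result about the XUTs. After quantile normalization, which gives all libraries the same distribution of values, 92 were called lower and 86 higher and the median was -0.01, so the lower level of the group was not seen under that scaling. Without the second WT library 152 were called lower, and without either dhh1-delta library 157. Of the 298 lower calls, 90 were made in each of the 4 fits without 1 library and in the fits with protein-coding factors, spike-in factors and voom.

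**Figure D2:**
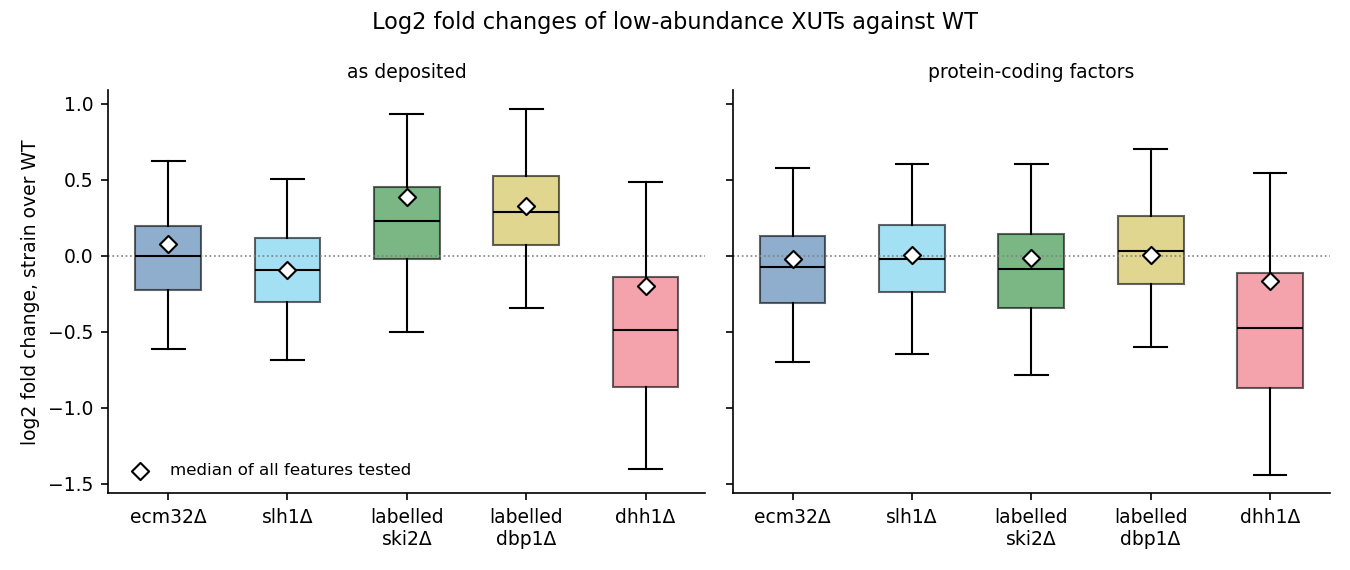
Log2 fold changes of the 1086 low-abundance XUTs in each deletion strain over WT, as deposited (left) and with factors from protein-coding genes (right). Boxes span the quartiles with the median as a line, whiskers the 5th to the 95th percentile of the members, and diamonds mark the median of all 9497 features tested; the dhh1-delta box is centred at -0.48 in both panels, while the medians of the ski2-labelled and dbp1-labelled libraries are 0.23 and 0.29 as deposited and -0.08 and 0.03 with the other factors.

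The lower values in dhh1-delta were spread over the group. In 5 classes of nearly equal size by length, from 153 to 322 up to 1221 to 5923 nucleotides, the median log2 fold change lay between -0.45 and -0.52, and the summed density between 59.7 and 65.6% of WT. In 5 such classes by mean density the summed density was 60.3 to 67.4% of WT, highest in the lowest class. Their medians lay between -0.36, in the lowest class, and -0.55, on a log2 scale whose pseudocount of 0.00508 damps changes of low values. The number called lower was 31 in the lowest class by density and 78 in the highest. It was 50 in the shortest class and 87 in the longest, whose median members had 46 and 328 reads over the 12 libraries.

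Other noncoding transcripts of similar level had values close to these. Of 563 CUTs (cryptic unstable transcripts, cleared mainly by the nuclear exosome) within the same bounds, 24.5% were called lower and 0.888% higher in dhh1-delta, with a median log2 fold change of -0.49. Of 782 NUTs (transcripts seen when the termination factor Nrd1 is depleted) within the bounds, 27.7% were called lower and 1.41% higher, with a median of -0.49. The 294 protein-coding genes within the bounds had 24.1% called lower, 9.18% called higher and a median of -0.30. The 274 well-expressed XUTs had 45.3% called lower, 3.28% called higher and a median of -0.57. As a share of endogenous reads, low-abundance XUTs stood at 63.0% of WT, well-expressed XUTs at 62.0%, CUTs at 61.1%, NUTs at 62.7% and the protein-coding genes at 94.1%. The classes were not tested against each other, and no decrease particular to low-abundance XUTs was shown. The 76 snoRNAs, on which the deposited scale rests, had a median of -0.03.

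**Figure D3:**
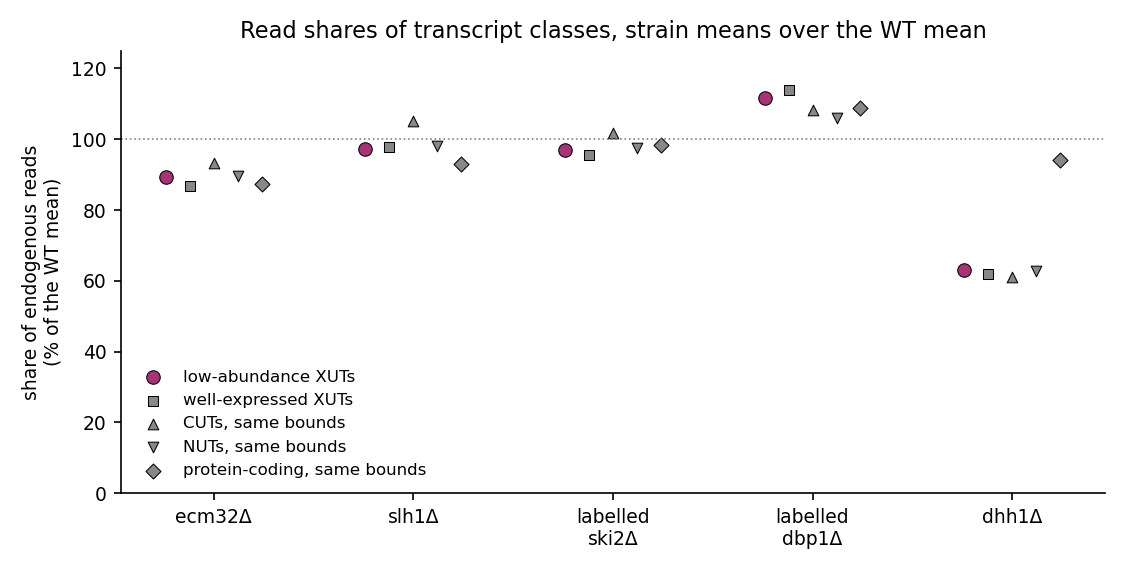
Share of endogenous reads taken by low-abundance XUTs and by 4 other groups of transcripts, as percent of the WT mean, in the mean of the 2 libraries of each deletion strain. In dhh1-delta the 4 noncoding groups lie between 61.1 and 63.0% and the protein-coding genes of the same density at 94.1%; in the other strains every group lies between 86.8 and 114%.

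Comparisons between deletion strains use no WT library. Against ecm32-delta 295 members (27.2%) were lower and 15 (1.38%) higher in dhh1-delta, against 28.3% and 11.7% of all features. The median log2 fold change was -0.49, beside -0.27 over all features. Against slh1-delta 202 (18.6%) were lower and 8 (0.737%) higher, against 15.3% and 15% of all features. Here the medians were -0.41 and -0.10. Against the ski2-labelled libraries 526 (48.4%) were lower and 11 (1.01%) higher, against 53.1% and 5.83%, with medians of -0.73 and -0.54. Against the dbp1-labelled ones 572 (52.7%) were lower and 4 (0.368%) higher, against 50% and 6.65%, with medians of -0.81 and -0.51. The shares called lower were near those of all features and are no result about the XUTs. The shares called higher were below those of all features, a difference that was not tested. With protein-coding factors the members' medians lay between -0.40 and -0.55, beside -0.13 to -0.17 over all features. The lower calls then lay between 281 and 378, with no share over all features beside them.

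Single members showed how far this went. XUT1126, 2571 nucleotides long and among the better covered members, had 3 and 3 reads in dhh1-delta, against 46 and 82 in WT. Its density was 0.000877 and 0.000892 in dhh1-delta, against 0.0224 and 0.0290 in WT, and lay between 0.0149 and 0.0360 in the 8 libraries of the other strains. No library outside dhh1-delta came near those values. The log2 fold change was -2.36 (standard error 0.21, limma-trend adjusted p = 8.76e-06). The ratio of reads on the deposited scale was 0.0337 (95% counting interval 0.0121 to 0.0753). Against each of the other 4 deletion strains it was also lower in dhh1-delta, by limma-trend with adjusted p from 3.9e-06 to 6.97e-05.

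In the deposited table XUT1126 stands between the rows of UBC8 and GLC3 on chromosome V (build R64, UBC8 at 131772 to 132551 and GLC3 at 133120 to 135234). The order of rows follows chromosome position for 5873 of 5884 successive pairs of protein-coding genes on a chromosome. It gives neighbours only, since coordinates and strands of XUTs were not used here. GLC3, the glycogen branching enzyme, rose by 3.12 in dhh1-delta (limma-trend adjusted p = 2.06e-07), and UBC8, a ubiquitin-conjugating enzyme, by 0.72 (adjusted p = 0.0109).

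XUT0116, of 478 nucleotides, had 0 and 0 reads in dhh1-delta, against 6 and 14 in WT, and 2 to 9 reads in each of the other 8 libraries. It was at least 9.28-fold lower, with 3 reads over both dhh1-delta libraries as the upper limit of a count of 0. The fitted log2 fold change of -2.34 (standard error 0.32, limma-trend adjusted p = 0.000208) depends on the pseudocount. The call held in 4 of 4 fits without 1 library, and XUT0116 was lower in dhh1-delta against each other deletion strain (adjusted p from 0.000435 to 0.0045). Its neighbouring rows on chromosome III are SSK22, a kinase of the osmotic stress pathway, which fell by 1.05 on the log2 scale, and SOL2, which rose by 0.59. In all, 9 members had no read in both dhh1-delta libraries, 3 in ecm32-delta, 2 in the ski2-labelled libraries and 0 in the other strains and WT.

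A further 3 members had decreases of similar size. XUT0275 had 0 and 3 reads in dhh1-delta, against 7 and 19 in WT (log2 fold change -2.50, standard error 0.42, limma-trend adjusted p = 0.000922). XUT0470 had 0 and 1 reads, against 5 and 6 in WT, and XUT1680 0 and 2, against 6 and 8 in WT, at -2.32 and -2.20. No overlap with WT was a condition for naming these members and is no further evidence. For all 3 the call held in 4 of 4 fits without 1 library. XUT0275 did not pass between dhh1-delta and slh1-delta (-1.14, limma-trend adjusted p = 0.0607), while XUT0470 and XUT1680 passed against each other deletion strain.

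A few members went the other way. XUT0404, of 680 nucleotides, had 36 and 38 reads in dhh1-delta, against 5 and 4 in WT. Its density was 0.0398 and 0.0427 in dhh1-delta, against 0.00922 and 0.00536 in WT, and 0.00753 to 0.0124 in the other 8 libraries. Both dhh1-delta libraries thus stood apart from the other 10. The log2 fold change was 1.92 (standard error 0.24, limma-trend adjusted p = 0.000102). The ratio of reads on the deposited scale was 5.91 (95% counting interval 2.95 to 13.4). XUT0404 was also higher in dhh1-delta against each other deletion strain (limma-trend adjusted p from 7.97e-05 to 0.000288). The neighbouring rows on chromosome VII, UPA1 and ERV29, a cargo receptor of the secretory pathway, had log2 fold changes of -0.27 and 0.24 and did not pass.

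XUT1643 had 7 and 10 reads in dhh1-delta, against 1 and 0 in WT (log2 fold change 1.87, standard error 0.38, limma-trend adjusted p = 0.00282). It passed against each other deletion strain except the dbp1-labelled libraries (0.60, adjusted p = 0.196). XUT0144 had 10 and 9 reads, against 1 and 2 in WT (1.48, standard error 0.28, adjusted p = 0.00183), but passed in 0 of the 4 comparisons with other deletion strains, whose 8 libraries had 2 to 6 reads. Against the same WT libraries XUT0144 was also called higher in the ski2-labelled (1.12, limma-trend adjusted p = 0.0139) and dbp1-labelled libraries (0.91, adjusted p = 0.0470), XUT1643 in the dbp1-labelled ones (1.27, adjusted p = 0.0432) and XUT0357, described next, in the ski2-labelled ones (1.57, adjusted p = 0.0205). XUT0357 had 25 and 18 reads, against 6 and 3 in WT (1.43, standard error 0.45, limma-trend adjusted p = 0.0269). It passed in 0 of the 4 comparisons with other deletion strains (limma-trend adjusted p from 0.0564 to 0.80). Its density was 0.0474 and 0.0348 in dhh1-delta, below the 0.0629 of the first ski2-labelled library.

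XUT1499 was called higher in dhh1-delta (11 and 8 reads, log2 fold change 1.72), in the ski2-labelled libraries (6 and 5 reads, 1.89) and in the dbp1-labelled ones (5 and 9 reads, 1.89), against 1 and 0 reads in WT. In ecm32-delta and slh1-delta, where it did not pass, it had 10 and 5 and 4 and 9 reads. Every deletion library was above both WT libraries, and none of the 10 comparisons between deletion strains passed for this XUT. The comparisons share the 2 WT libraries, which alone stood apart.

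**Figure D4:**
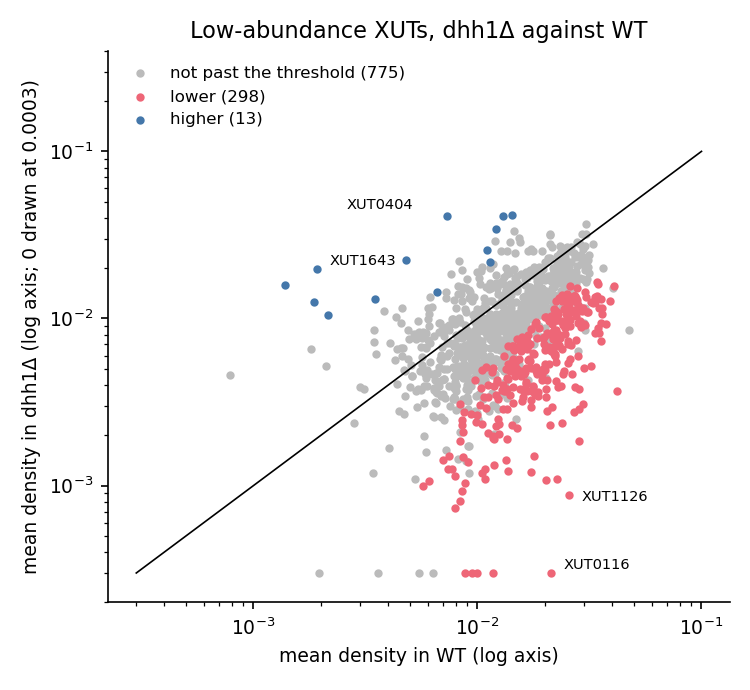
Mean density of each of the 1086 low-abundance XUTs in dhh1-delta (vertical, log axis, a density of 0 drawn at 0.0003) against WT (horizontal, log axis), with the line of equal density. The 298 members called lower and the 13 called higher by limma-trend are coloured; in all 889 members had a fitted fold change below 0.

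Neighbouring genes were compared with the XUTs as well. For 986 members both neighbouring protein-coding rows were tested, and the Spearman correlation between the fold change of a member and the mean of its neighbours was 0.01 in dhh1-delta and 0.01 to 0.05 in the other strains, a description across transcripts. The 289 members next to a gene called higher (none lower) had a median log2 fold change of -0.50, the 310 next to a gene called lower -0.51, and the 302 next to no called gene -0.43. For 23 members a neighbouring gene stood at a log2 fold change of 2 or more. Their median was -0.70, with 11 called lower and 0 higher. For 16 members a neighbouring gene stood at -2 or less. Their median was -0.57, with 6 called lower and 0 higher. Among all 1086 members 27.4% were called lower, and these sets were not tested against each other. Whether reads were counted by strand is not given in the sources used here, so reads of a XUT and of a gene it overlaps antisense may not be fully separated.

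In ecm32-delta few low-abundance XUTs passed the test. Of the 1086 members 2 were called lower (0.184%) and 0 higher, against 0.0421% lower and 0.0316% higher over all features; 69 (6.35%) had an unadjusted p under 0.05, against 8.69% of all features, and voom called 1 lower and 0 higher. The median log2 fold change was 0.00, beside 0.08 over all features. XUT1162, of 2696 nucleotides, had 0 and 0 reads in ecm32-delta, against 20 and 29 in WT, and 16 to 38 reads in each library of the other 4 strains. It was at least 19.5-fold lower, with 3 reads over both libraries as the limit. It stands in the table next to ECM32 itself, the deleted gene (chromosome V, 541690 to 545055), followed by BMH1, which did not pass (0.16). Whether XUT1162 lies within the replaced segment was not tested. Its limma-trend adjusted p was 0.0374 against WT and passed in 0 of 4 fits without 1 library, but each other deletion strain was also higher than ecm32-delta (adjusted p from 0.00214 to 0.0188).

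XUT1427, of 270 nucleotides, had 0 and 0 reads in ecm32-delta, against 3 and 4 in WT, and 1 to 4 in the other 8 libraries. It was at least 2.78-fold lower (fitted log2 fold change -1.89, limma-trend adjusted p = 0.0350), and passed in 0 of 4 fits without 1 library. At 7 WT reads in all, this call rests on few counts.

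In slh1-delta no member was called, against 0.0105% lower and 0% higher over all features, that is 1 feature, SLH1. By limma-trend 68 members (6.26%) had an unadjusted p under 0.05, against 7.03% of all features, and voom called 1 lower and 0 higher. The median log2 fold change was -0.10, beside -0.09 over all features. The members with the smallest p did not pass: XUT0391 had 8 and 9 reads in slh1-delta, against 2 and 1 in WT (1.42, standard error 0.32, limma-trend adjusted p = 0.349), and XUT0963 had 1 and 6, against 9 and 10 in WT (-1.71, standard error 0.39, adjusted p = 0.349). Against the same WT libraries XUT0391 was called higher in the ski2-labelled libraries (1.57, limma-trend adjusted p = 0.0108). It was called lower in dhh1-delta (-0.95, adjusted p = 0.0370), as was XUT0963 (-1.13, adjusted p = 0.0393). Between slh1-delta and ecm32-delta 1 member was higher and 0 lower (all features 0.0421% and 0.463%).

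**Figure D5:**
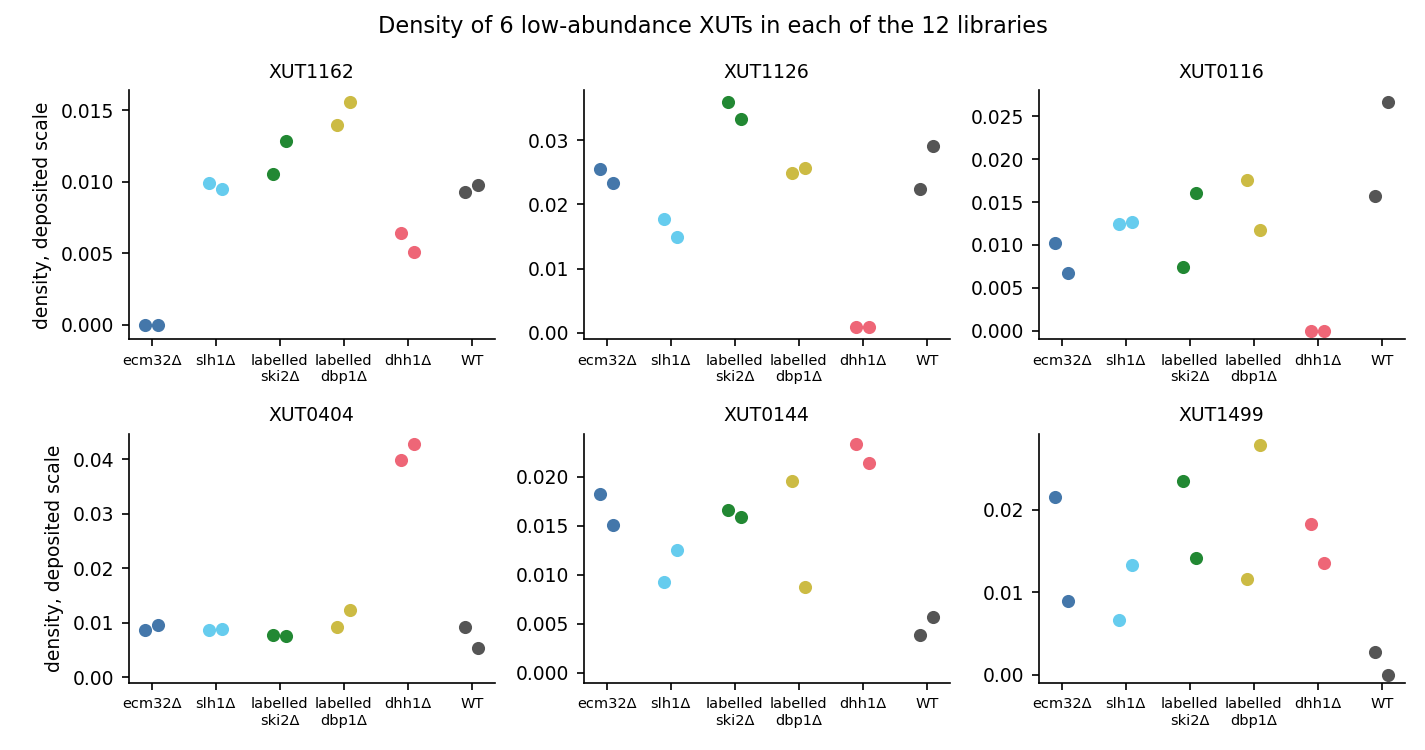
Density on the deposited scale of 6 low-abundance XUTs in each library, 2 points per strain. XUT1162 is at 0 in ecm32-delta alone, XUT1126 and XUT0116 are lowest in dhh1-delta (XUT0116 at 0), XUT0404 is highest there, XUT0144 is low in WT, and XUT1499 stands apart in WT, with 1 and 0 reads.

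In the ski2-labelled libraries, which lacked nearly all DBP1 reads, 69 members (6.35%) were called higher and 10 (0.921%) lower than in WT, against 39.3% higher and 0.737% lower over all features. The share called higher was below that of all features, a difference that was not tested. Within the same density bounds 6.12% of protein-coding genes, 5.37% of NUTs and 10.1% of CUTs were called higher. The low share was thus not particular to the XUTs. The members' median log2 fold change was 0.23, beside 0.39 over all features and 0.43 for protein-coding genes. With protein-coding factors 0 members were called higher and 3 lower, and the median was -0.08. After quantile normalization 0 were called higher and 2 lower. Without the second ski2-labelled library 1 member was called higher, and without the first WT library 2. On the spike-in scale 2 were called higher, and voom on the deposited scale called 63.

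The largest increases there rested on few reads. XUT0182 had 6 and 8 reads in the ski2-labelled libraries, against 0 and 5 in WT (log2 fold change 2.18, standard error 0.54, limma-trend adjusted p = 0.0133). Its ratio of reads on the deposited scale was 3.95 (95% counting interval 1.34 to 14.0). XUT1257 had 5 and 6, against 2 and 0 in WT, XUT1632 9 and 11, against 4 and 1 in WT, and XUT1636 2 and 4, against 1 and 0 in WT. Their fold changes were 2.18, 1.98 and 1.80, and no overlap with WT was a condition for naming them. Among the lower members XUT0848 had 0 and 0 reads, against 2 and 4 in WT, XUT0635 0 and 0, against 4 and 6 in WT, XUT0181 0 and 2, against 6 and 5 in WT, XUT1350 1 and 2, against 8 and 6 in WT, and XUT0287 2 and 2, against 10 and 10 in WT. Of the 10 members named, 0 passed in 4 of 4 fits without 1 library, and 2 passed with protein-coding factors, XUT0848 and XUT0635. The 95% counting interval of the ratio included 1 for XUT0848, XUT0181 and XUT1350 (upper limits 1.20, 1.18 and 1.08). It excluded 1 for the other members named. XUT0848 and XUT1350 were also called lower in dhh1-delta than in WT (-0.92 and -1.60).

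In the dbp1-labelled libraries, which lacked nearly all SKI2 reads, 49 members (4.51%) were called higher and 6 (0.552%) lower, against 17.2% higher and 0.411% lower over all features. Within the same density bounds 5.44% of protein-coding genes, 2.94% of NUTs and 4.09% of CUTs were called higher. The share called higher was thus near that of other transcripts of this density. The median log2 fold change of the members was 0.29, beside 0.33 over all features. With protein-coding factors 0 were called in either direction and the median was 0.03. The best covered of the members named was XUT1517, of 1377 nucleotides, with 49 and 35 reads in the dbp1-labelled libraries, against 17 and 10 in WT. Its densities there were 0.0373 and 0.0356, against 0.0155 and 0.00661 in WT (log2 fold change 1.42, standard error 0.33, limma-trend adjusted p = 0.0246). No overlap with these WT libraries was a condition for naming it. It lost the call with protein-coding factors (1.14, adjusted p = 0.175). XUT1517 also passed against WT in the ski2-labelled libraries (0.97, adjusted p = 0.0349) and in dhh1-delta (0.98, adjusted p = 0.0341). Its densities in the 10 deletion libraries, 0.0168 to 0.0373, all lay above both WT libraries, and 0 of the 4 comparisons of the dbp1-labelled libraries with other deletion strains passed.

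The other members named there had at most 20 reads in either pair of libraries. XUT1558 had 4 and 3 reads in the dbp1-labelled libraries, against 0 and 1 in WT, XUT0676 6 and 7, against 1 and 3 in WT, and XUT0182 7 and 6, against 0 and 5 in WT. Lower were XUT1729 with 2 and 0 reads, against 4 and 9 in WT, XUT0506 with 3 and 1, against 9 and 9 in WT, XUT1244 with 1 and 0, against 3 and 4 in WT, XUT1440 with 4 and 3, against 8 and 12 in WT, and XUT0199 with 4 and 2, against 6 and 7 in WT. XUT1558 was also called higher in the ski2-labelled libraries and in dhh1-delta (1.39 and 1.29), and XUT0199 also lower in both (-0.73 and -1.08), against the same WT libraries. Of the 10 members named, 0 passed with protein-coding factors and 0 in 4 of 4 fits without 1 library. The 95% counting interval of the ratio included 1 for XUT0182 (lower limit 0.989), XUT1244 (upper limit 1.26) and XUT0199 (upper limit 1.48). It excluded 1 for the other members named.

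Between the dbp1-labelled and the ski2-labelled libraries limma-trend called 0 members in either direction, against 0.0105% of all features in each, and voom called 0 higher and 1 lower. At an unadjusted p under 0.05 stood 84 members (7.73%), against 7.76% of all features. Their members' shares of reads did not overlap, at 0.134% in each dbp1-labelled library, against 0.111 and 0.122% in the ski2-labelled ones. Their summed densities on the deposited scale did overlap, at 20.1 and 23.4 against 19.2 and 21.7. Against ecm32-delta, 22 members (2.03%) were higher and 2 (0.184%) lower in the dbp1-labelled libraries (all features 7.21% and 0.221%). In the ski2-labelled ones 17 (1.57%) were higher and 3 (0.276%) lower (all features 13.3% and 0.263%). Against slh1-delta, 144 (13.3%) were higher and 1 (0.0921%) lower in the dbp1-labelled libraries (all features 43.8% and 0.369%). In the ski2-labelled ones 99 (9.12%) were higher and 5 (0.460%) lower (all features 48.9% and 0.516%). With protein-coding factors these 4 comparisons called 0 to 3 members higher and 0 to 2 lower.

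The genes of the decay pathways that act on XUTs were described from a list of 48 factors, all tested. In dhh1-delta 9 were higher and 11 lower, DHH1 itself among the lower ones, while 20.9% of all protein-coding genes were called higher and 21.7% lower. Counts this close to those shares are no result about decay factors as a group, and the members of the list are given singly. Of the decapping factors, EDC1, an enhancer of decapping, had densities of 1.248 and 1.5001 in dhh1-delta, against 0.105 and 0.194 in WT (log2 fold change 3.21, standard error 0.24, limma-trend adjusted p = 3.08e-06). EDC2 rose by 1.17, PAT1, an activator of decapping, by 0.93, LSM2 by 0.80 and DCP1, a subunit of the decapping enzyme, by 0.47. DCP2, its catalytic subunit, had 0.218 and 0.220 in dhh1-delta, against 0.416 and 0.408 in WT (fell by 0.90, adjusted p = 8.13e-05). XRN1, the exonuclease that degrades XUTs, had 1.11 and 1.06 in dhh1-delta, against 1.54 and 1.74 in WT (fell by 0.60, adjusted p = 0.00254), and its nuclear relative RAT1 fell by 0.56.

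The nonsense-mediated decay factors NAM7, NMD2 and EBS1 fell by 0.75, 0.82 and 0.85 in dhh1-delta. Of the Ski and exosome factors SKI8 and RRP40 rose by 0.51 and 0.42, and RRP6 and MTR4 fell by 0.42 and 0.69. SEN1, a helicase of transcription termination, fell by 0.46. Of the deadenylases CCR4 and PAN3 rose by 0.41 and 0.39 and PAN2 fell by 0.50. With protein-coding factors 11 of the 48 were higher and 12 lower. In ecm32-delta and slh1-delta 0 of the 48 passed in either direction, while 39 were higher in the ski2-labelled libraries, where 60.0% of protein-coding genes were, and 12 higher and 1 lower, SKI2, in the dbp1-labelled ones, where 24.7% of protein-coding genes were higher. With protein-coding factors 0 were higher in both, and SKI2 was the 1 lower. These are levels of messenger RNA, and no relation to the XUT values was tested.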

How the data were processed

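Total RNA depleted of ribosomal RNA was sequenced from 6 strains, 2 libraries each. The authors deposited normalized densities, a signal per feature. Build R64 and the tools featureCounts 2.0.0, HISAT2 2.2.0, DESeq2 and Trim Galore are listed in the submitters' processing notes. How reads were assigned is not given in the sources used here. The deposited densities were whole multiples (tolerance 0.001) of a value per read and feature length, with the length searched for, for 100% of 124137 values above 0. The shortest length that gave whole reads was taken. It equalled the RefSeq length for 76 of 76 snoRNAs but for 841 of 6000 matched features in all, and was at or above it for 5934 of the 5956 with reads; XUT lengths could not be checked, so their lengths, read numbers and intervals rest on this recovery. The steps between libraries follow size factors of the 76 snoRNAs within 0.558%, against 27.1% for protein-coding genes.

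The table holds densities and not counts, so log2(density + 0.00508), with the 10th percentile of values above 0 as pseudocount, was fitted by limma-trend (R 4.3.3 with limma 3.58.1) over endogenous features with a mean above it (6 residual degrees of freedom); spike-ins were left out. Fold changes understate changes of low values. Ratios of reads and fold limits at a count of 0 use the authors' scaling between libraries, not endogenous reads. Intervals of ratios are exact binomial, and those of read shares are Wilson score intervals. Like the limit of 3 reads for a count of 0, they cover counting error only. Alternatives were other pseudocounts, no filter, 3 scalings, only 4 libraries, replicate block, leaving out each library, and voom on recovered reads. Named XUTs are, per comparison, up to 5 higher and 5 lower with the largest fold change past the threshold and no overlap of libraries; with fewer than 2 past it, the 2 smallest p; those at 0 with 20 reads in WT or the reverse; and the 3 nearest each bound. Named genes are the 5 helicases and the decay factors past the threshold. The members and lists were chosen with earlier results of these data known.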

Additional observations from a re-analysis of the deposited data

How the results depend on the processing

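With spike-in factors 3 members were called higher and 6 lower in ecm32-delta, 1 and 9 in slh1-delta, and 2 and 18 in the ski2-labelled libraries, and 4 were called higher in the dbp1-labelled ones. The medians were then -0.21, -0.37, -0.35, -0.14 and, in dhh1-delta, -0.68, with summed densities of 77.7, 66.8, 68.2, 84.4 and 51.0% of WT in the same order. These values rest on a WT level that differed between its libraries, with spike-in-scaled sums of 30.3 and 14.8. With protein-coding factors 0 members were called higher and 3 lower in the ski2-labelled libraries (median -0.0845, sum 91.4%) and 0 and 0 in the dbp1-labelled ones (median 0.0324, sum 103.2%). Quantile normalization called 1 member lower in ecm32-delta, 0 higher and 2 lower in the ski2-labelled libraries (median -0.0098), 0 and 0 in the dbp1-labelled ones (median 0.0014), and 86 higher and 92 lower in dhh1-delta (median -0.0057). Over the 10 pairs of deletion strains 1927 calls were made as deposited, 621 after quantile normalization and 452 with spike-in factors. As a share of reads the members stood at 89.2% of WT in ecm32-delta, 96.95% in the ski2-labelled and 111.7% in the dbp1-labelled libraries.

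Fitting only the 4 libraries of a comparison called 1 member lower in ecm32-delta and 0 higher and 0 lower in the ski2-labelled libraries. With 10 times the pseudocount 0 were lower in ecm32-delta and 77 higher in the dbp1-labelled libraries, with medians of 0.0712 in the ski2-labelled libraries, 0.0884 in the dbp1-labelled ones and -0.13 in dhh1-delta. With 0.00254 as pseudocount there was a median of -0.59 in dhh1-delta. Voom called 1 member lower in ecm32-delta, 1 in slh1-delta, 5 in the ski2-labelled libraries and 2 in the dbp1-labelled ones, with medians of 0.32 in the ski2-labelled libraries and -0.74 in dhh1-delta.

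Without 1 library each, the ranges were as follows. In ecm32-delta 0 members were called lower in every such fit (median -0.10 to 0.0699, sum 90.9 to 106.7%), and in slh1-delta the median ran from -0.20 to -0.0324 and the sum from 83.5 to 98.0%. In the ski2-labelled libraries 1 to 72 were higher and 1 to 9 lower (median 0.14 to 0.32, sum 114.1 to 133.9%). In the dbp1-labelled libraries 0 to 83 were higher and 0 to 12 lower (median 0.20 to 0.38, sum 121.2 to 142.6%). In dhh1-delta 5 to 19 were higher and 152 to 241 lower (median -0.59 to -0.43, sum 58.4 to 68.5%).

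Same-numbered libraries of the 15 strain pairs deviated together by correlations of -0.078 to 0.072, 0 of them over 0.1. No effect shared by same-numbered libraries was thus seen. With 2 libraries per strain, these correlations cannot decide whether such libraries were prepared together. With a replicate block 1 member was lower in ecm32-delta, 15 were higher and 311 lower in dhh1-delta, and 1962 calls were made between deletion strains. Of the 34 values of named XUTs, 18 no longer passed with protein-coding factors and 20 after quantile normalization, and 0 reversed. The causes were not tested. A median of 8.5 reads per member and library limits single XUTs, and 2 libraries per strain limit every test.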

Other observations

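Replicates of the low-abundance XUTs differed by less than counting error. The chi-square of their recovered reads per degree of freedom, between the 2 libraries of a strain with each library's own total, was 0.75 to 0.85, against 0.93 to 1.36 for well-expressed XUTs and 6.31 to 12.3 for protein-coding genes. Of the 12839 recovered read numbers above 0 of the members, 60.0% were even, with 407 at 1, 914 at 2 and 707 at 3. In protein-coding genes of the same density 61.8% of 3440 were even. The cause was not tested. Recovered reads may therefore not be independent counts, and the counting intervals rest on them.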
